A study of Mus musculus with 10 samples.

Results

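The olfactory cAMP transduction cascade is the chain of proteins that turns the binding of an odorant to its receptor into an electrical signal in the olfactory sensory neuron (OSN). The 10 genes taken to stand for it were found by symbol in the count table, which had 24421 rows: the G protein subunits Gnal and Gng13 and the exchange factor Ric8b, the adenylyl cyclase Adcy3, the channel subunits Cnga2, Cnga4 and Cngb1, the chloride channel Ano2, the phosphodiesterase Pde1c and the exchanger Slc24a4. All 10 passed the filter on low counts, and the rule that names them uses no measured value.

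The libraries came from the main olfactory epithelium (MOE), the nasal tissue in which OSNs lie, dissected whole at postnatal day 14 from mice whose strain the labels give as C57BL/6. The study injected C57BL/6J zygotes for its deletions of a single enhancer, and it describes the mouse lines it used in all as of mixed C57BL/6J and 129 background. Mice without a deletion (wild type, WT, 3 libraries) were set beside mice lacking TAAR enhancers 1 and 2 on 1 allele (het, 3 libraries) or on both alleles (homo, 4 libraries). These enhancers lie in the cluster of trace amine-associated receptor (Taar) genes. The double deletion was made with CRISPR-Cas9 by targeting enhancer 1 in zygotes of mice homozygous or heterozygous for the enhancer 2 deletion. It was kept as a single line, and homo and het mice were compared with WT mice of that line. The labels do not say how many mice entered a library, so p-values measure the spread between these libraries.

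In background terms, an occupied receptor activates the G protein Golf, of which Gnal encodes the alpha subunit, and Golf activates the cyclase Adcy3, which makes cAMP in the cilia. cAMP opens the channel built from Cnga2, Cnga4 and Cngb1, and the calcium that enters opens the chloride channel Ano2, which adds to the current. Odorant receptors and olfactory TAARs are both held to use this cascade, so that OSNs of either kind express it. Whether its transcripts differed when the enhancers were deleted was the question put to the data.

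No transcript of the cascade was found to differ between WT, het and homo MOE. The study describes OSNs that express TAARs as a very small part of whole MOE. A loss of these cells alone would be too small to be seen in the cascade transcripts here. None of the 10 genes was called in any of the 3 comparisons (edgeR quasi-likelihood test, Benjamini-Hochberg adjusted p under 0.05). Among all 17197 genes tested, 0.0698% were called in homo against WT mice, 0.0% in het against WT mice and 0.0756% in homo against het mice. At an unadjusted p under 0.05 the count of cascade genes was also 0 in each comparison, where the shares of all genes were 2.41%, 1.92% and 2.48%. DESeq2 likewise called 0 of the 10 genes in each comparison and 0 genes of the table between het and WT. The 3 comparisons share their libraries and are not independent of each other. All these counts come from fits without a replicate block. With the replicate number as a block in WT and het libraries alone, 2 cascade genes had an unadjusted p under 0.05 (edgeR). The share of all genes was 6.59% there, and no cascade gene was called.

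Depth, labels and tissue were checked before the genes were compared. Total counts were 21423861 to 27712948 per library. The summed level of the 14 olfactory Taar genes was 34.2 to 36.7 CPM (counts per 1000000 of the library total) in WT, 30.9 to 36.2 CPM in het and 0.0934 to 0.221 CPM in homo libraries, in the direction that the labels give. Omp, the defining marker of mature OSNs, was at 3572 to 4861 CPM and Cyp2g1, of supporting cells, at 2462 to 3075 CPM. The vomeronasal channel gene Trpc2 was at most 0.0439 CPM, and its list was carried by Gnao1, at 317 to 402 CPM. In whole tissue, fewer OSNs and less RNA per OSN cannot be told apart.

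The marker lists overlapped between the genotypes. The 10 mature OSN markers summed to 9555 to 10567 CPM in WT, 8911 to 10478 CPM in het and 8475 to 10029 CPM in homo libraries. The 8 immature OSN markers, led by Gap43, summed to 2436 to 3055, 2332 to 2991 and 2513 to 2928 CPM in the same order. Markers of microvillous tuft-type cells, in which Gng13 is also known to be expressed, summed to 24.2 to 25.9, 23.3 to 26.6 and 23.2 to 25.3 CPM, with their defining gene Trpm5 at 4.93 to 7.52 CPM. The lists for supporting, respiratory ciliated, basal and necklace cells also overlapped between each pair of genotypes.

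Sequences next to the transcription start sites are shown for the genes that share a short palindrome-like match. The early B-cell factors (EBF) are known regulators of OSN genes and bind palindromes with the core CCCNNGGG. The windows searched ran from 250 bases before to 50 bases after each annotated start, on both strands, in RefSeq sequences of GRCm38.p6, and 9 of the 10 genes had a window. The core was present in a window of 6 of these 9 genes and of 17.6% of all 17492 genes, and genes with several starts have several windows. The matches follow, 5′ to 3′ along the gene, with the matched core in capitals and 10 bases on either side. In Gng13 a pair of core matches overlap, and the capitals cover both.

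Gng13: gcatgtcccaCCCCAGGGGagacctgcca

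Cnga2: aagggagagtCCCTTGGGgagcttggga

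Cnga4: gcagctggagCCCCAGGGcagcttcttc

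Cngb1: cactgctggaCCCGTGGGggttgctgct

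Ano2: aagggaacacCCCGAGGGatggaggcag

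Slc24a4: tgggcgagcgCCCTAGGGgaggtgtaca

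The printed stretch of Gng13 lies at chr17:25717067-25717095, of Cnga2 at chrX:71991773-71991800, of Cnga4 at chr7:105404582-105404609, of Ano2 at chr6:125711111-125711138 and of Slc24a4 at chr12:102128608-102128635, all on the plus strand. That of Cngb1 lies at chr8:95306697-95306724 on the minus strand, at the start of the longest annotated form. No other window of Cngb1 was searched, and whether OSNs use this start was not tested. Relative to the start, the matches began at base -95 in Gng13, -66 in Cnga2, -67 in Ano2, -109 in Slc24a4, -129 in Cngb1 and 24 in Cnga4. Ano2 had 3 windows, and the match was in that of a start inside the gene, with no match in the other two, near the first annotated start. The longer palindrome, with T before and A after this core, was in no window of the 9 genes and in 1.12% of all genes, and the homeodomain core TAATTA was in none of the 9 and in 5.37% of all genes. A match describes these letters and is not a binding site.

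Gnal was the most counted gene of the cascade, with 35846 to 48661 reads per library. Its level was 1818, 1544 and 1653 CPM in the WT libraries, 1783, 1805 and 1687 CPM in the het libraries and 1673, 1644, 1614 and 1692 CPM in the homo libraries. The WT libraries held both the highest and the lowest value, and the groups overlapped. The fitted log2 difference was -0.0091 ± 0.090 (SE) between homo and WT and 0.072 ± 0.096 between het and WT. The 95% interval for homo against WT ran from 0.871-fold to 1.13-fold. Chmp1b, which overlaps Gnal on the same strand, had 1088 to 1491 reads and Mppe1, on the opposite strand, 417 to 575. Gene positions are those of GENCODE M21 on GRCm38.

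Ric8b (chr10:84917616-85018337) encodes a guanine nucleotide exchange factor and chaperone for the Gnal protein. Its level was 597, 611 and 598 CPM in WT, 569, 624 and 666 CPM in het and 586, 581, 640.2 and 589 CPM in homo libraries. The het libraries spanned more than the whole range of the others, and the log2 difference was -0.0027 ± 0.088 for homo against WT and 0.040 ± 0.094 for het against WT.

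Gng13 (chr17:25717171-25719406), the gamma subunit that pairs with Golf, was the gene of the cascade that varied most. Its level was 247, 199.7 and 327 CPM in WT, 159, 179.8 and 319 CPM in het and 192, 147, 247 and 237 CPM in homo libraries. Each genotype held low and high libraries, and the highest value was 2.22 times the lowest, against at most 1.48 times for any other cascade gene. The log2 difference was -0.32 ± 0.27 (SE) for homo against WT and -0.24 ± 0.29 for het against WT, with unadjusted p of 0.265 and 0.440 in the edgeR fit across all genes. Its 95% interval for homo against WT ran from 0.522-fold to 1.22-fold, the widest among the 10 genes. The gene-wise biological coefficient of variation in the fit was 24.8% for Gng13, above each of the 500 tested genes nearest to it in level, and 9.12% to 12.6% for the other cascade genes.

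**Figure D1:**
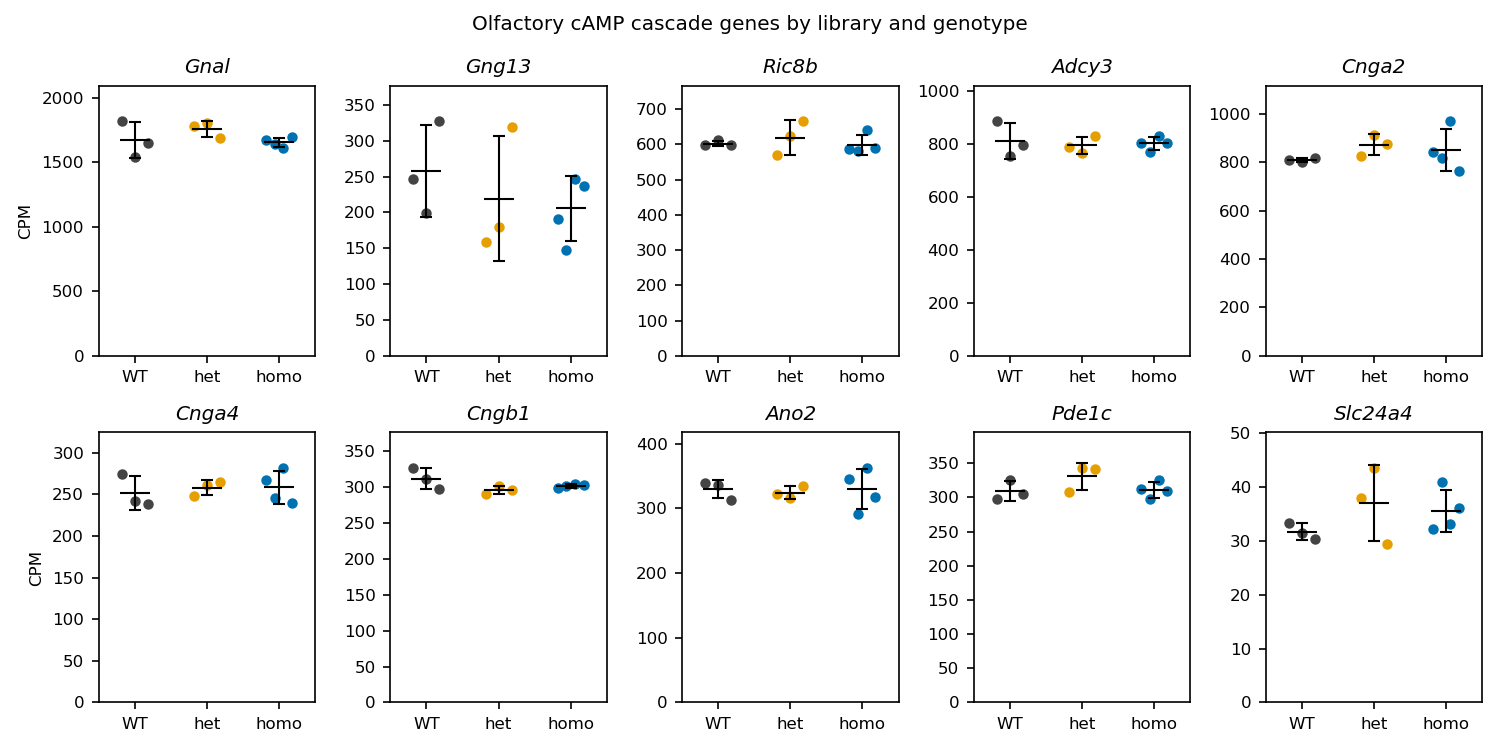
Level of each cascade gene (CPM, axes from 0) in the 3 WT, 3 het and 4 homo libraries, 1 point per library, with bars for the mean and SD of the genotype. The genotypes overlap in all genes except Cnga2 between WT and het, and Gng13 spreads from 147 to 327 CPM.

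The level of Gng13 moved over the libraries with that of short transcripts and with the sum of the mature OSN markers. A short-transcript level was taken for each library as the median, over 791 protein-coding genes with transcripts under 1000 bases (cascade genes left out), of log2 CPM centred on the gene's mean. It was 0.040, 0.029 and 0.18 in WT, -0.12, -0.082 and 0.18 in het and -0.0027, -0.24, 0.12 and -0.035 in homo libraries. The libraries WT-3 and het-3 had the highest values and homo-2 and het-1 the lowest, so the genotypes overlapped. The level still leaned with genotype. All WT values were positive, as were those of het-3 and homo-3, while the remaining het and homo values were negative.

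Over the 10 libraries, log2 CPM of Gng13 and the short-transcript level had a Pearson r of 0.94 and a Spearman rho of 0.95. With WT-3 and homo-2, the libraries farthest from the median, left out, r was 0.91, and after the genotype means were subtracted it was 0.93. Slc24a4 ran the opposite way, with r of -0.87, rho of -0.85, r of -0.81 without those libraries and -0.86 within genotypes. The r of the other 8 cascade genes lay between -0.34 for Gnal and 0.54 for Ric8b. Among all genes tested, 99.3% had a lower r than Gng13 and 0.739% a lower r than Slc24a4. The summed mature OSN markers moved with both genes as well, with r of 0.88 and rho of 0.94 for Gng13 (r 0.85 within genotypes) and r of -0.89 and rho of -0.85 for Slc24a4 (r -0.88 within genotypes). For Slc24a4 this r was the larger in size. Without het-2 and homo-2, the libraries farthest from the median of the marker sum, r was 0.88 for Gng13 and -0.74 for Slc24a4. Omp was the most abundant marker in the sum, and the markers did not all move alike. Kirrel2, Slc17a6 and Ebf2 ran against Gng13 (r of -0.57, -0.32 and -0.22), and the others with it. The same genes ran with Slc24a4 (r of 0.37, 0.36 and 0.37), and the others against it, Stoml3 at only -0.084. The part of the marker sum in these levels was not tested. These correlations were looked for after the values had been seen and are given as a description with no p.

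**Figure D2:**
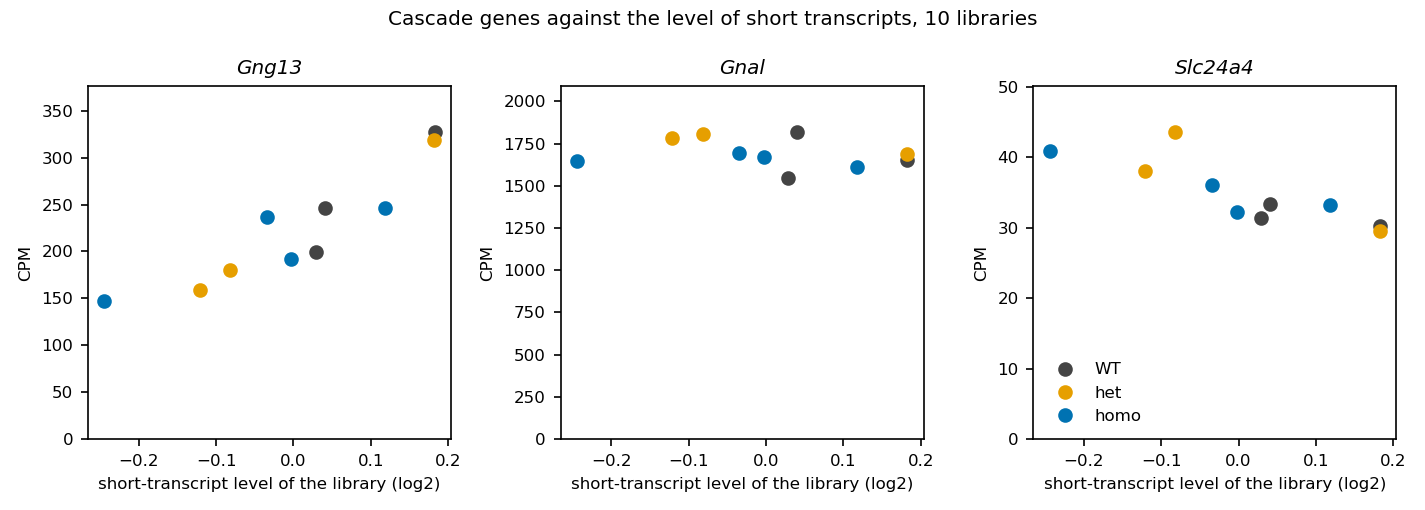
Level of Gng13, Gnal and Slc24a4 (CPM, axes from 0) against the short-transcript level of the library (log2), 1 point for each of the 10 libraries, coloured by genotype. Gng13 rises along the axis and Slc24a4 falls, with libraries of each genotype along both, while Gnal shows no such slope.

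Transcript length ordered the genes of the whole table in the same way. The median r with the short-transcript level was 0.62 for genes with transcripts under 1000 bases, 0.36 from 1000 to 2000, 0.12 from 2000 to 3000, -0.11 from 3000 to 5000 and -0.45 from 5000 bases. The first class defines the measure, and the others do not enter it. The longest coding transcript of Gng13 has 719 bases, the shortest in the cascade, whereas that of Slc24a4 has 4465 bases and that of Pde1c, with r of 0.22, 8766 bases. The order of the cascade genes by length was not their order by r, although the shortest had the highest r. Gnal, with 5736 bases, and Cngb1, with 6189 bases, had r of -0.34 and -0.071. Mature OSN markers also differed, from r of 0.94 for S100a5, with 431 bases, and 0.89 for Omp, with 2144 bases, to -0.28 for Ebf2, with 5204 bases, and -0.41 for Kirrel2, with 3352 bases.

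With the short-transcript level as a term beside genotype, an alternative chosen after seeing the data, the log2 difference of Gng13 was 0.0090 ± 0.11 (SE) for homo against WT, -0.038 ± 0.11 in het relative to WT and 0.047 ± 0.10 in homo relative to het. The SE was 0.27 to 0.29 without the term. None of the 10 genes was called with the term. Over the 17197 genes tested, its calls were 12 in homo relative to WT, 0 in het relative to WT and 14 in homo relative to het. Since the short-transcript level leaned with genotype, the term can also take out part of a genotype difference, and the fit cannot tell the parts apart. What sets the short-transcript level of a library was not tested.

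The genes with the profile most like that of Gng13 over the 10 libraries, named after their values were seen, were Rpl37a (r 0.99), Rpl38 (0.98), Snrpd3 (0.98), Rps29 (0.98) and Atp5k (0.98). Of the 49 among the first 50 genes that had a length, 63.3% had transcripts under 1000 bases, against 4.14% of all genes ranked. Of the 50 genes most like Slc24a4, led by Nup205 (0.95), Ncapd3 (0.95) and Zeb1 (0.94), 0 had transcripts under 1000 bases and the median length was 6337 bases. Chtf18, which overlaps Gng13 on the opposite strand, had 120 to 256 reads against 3334 to 7841 reads of Gng13. With a transcript of 3214 bases, it had r of 0.86 with Gng13 and 0.69 with the short-transcript level. Whether shared reads enter these values was not tested. Reads of the overlapping ends cannot be told apart if strand was not used in counting, a setting not given in the sources used here.

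Adcy3 (chr12:4133103-4213525) encodes the adenylyl cyclase of the olfactory cilia. Its level was 886, 754 and 797 CPM in WT, 790.0, 766 and 831 CPM in het and 805, 772, 832 and 804 CPM in homo libraries. As for Gnal, the highest and lowest libraries were WT-1 and WT-2. The log2 difference was -0.012 ± 0.089 (SE) for homo against WT, -0.031 ± 0.096 in het relative to WT and 0.020 ± 0.089 in homo relative to het. Cenpo, which overlaps Adcy3 on the opposite strand, had 145 to 218 reads.

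Cnga2 (chrX:71991849-72010218), the channel subunit that binds cAMP and can form channels alone, is X-linked. Its level was 807, 801 and 819 CPM in WT, 826, 913 and 877 CPM in het and 844, 818, 969 and 764 CPM in homo libraries. All 3 het libraries lay above the WT libraries, while homo libraries lay on both sides of both groups. Of the 10 cascade genes 1 did not overlap between het and WT, where 5.22% of tested genes did not. Between homo and WT the count was 0, beside 3.55% of genes, and between homo and het 0, beside 3.93%. The log2 difference of Cnga2 between het and WT was 0.11 ± 0.10 (SE), with a 95% interval from 0.925-fold to 1.26-fold.

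Libraries of both sexes were present in each genotype, since Y-linked transcripts were found in WT-1, in het-1 and in the homo libraries 2 and 3. In these 4 libraries Cnga2 was at 807, 826, 818 and 969 CPM, and in the other 6 it ranged from 764 to 913 CPM, so that the sexes overlapped. With this split as a term, an alternative chosen after seeing the data, 0 of the 10 genes were called and the log2 difference of Cnga2 was 0.067 ± 0.10 for homo against WT and 0.11 ± 0.11 for het against WT.

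Cnga4 (chr7:105404568-105408742) and Cngb1 (chr8:95239045-95306585) encode the modulatory subunits, which are known to raise the channel's sensitivity to cAMP and to speed its desensitisation by calcium. Cnga4 was at 275, 242 and 238 CPM in WT, 248, 261 and 265 CPM in het and 267, 246, 282 and 239 CPM in homo libraries. Cngb1 was at 327, 311 and 297 CPM in WT, 291, 302 and 296 CPM in het and 298, 301, 305 and 302 CPM in homo libraries. Cngb1 was the steadiest gene of the cascade, with a highest value 1.12 times the lowest. The log2 difference between homo and WT was 0.045 ± 0.092 (SE) for Cnga4 and -0.042 ± 0.080 for Cngb1.

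Ano2 (chr6:125690419-126040126) is the calcium-activated chloride channel of the cilia. It was at 339.7, 336 and 313 CPM in WT, 322, 316 and 335 CPM in het and 345, 292, 363 and 318 CPM in homo libraries. The homo libraries held the lowest and the highest value. The log2 difference was 0.0034 ± 0.092 (SE) for homo against WT and -0.025 ± 0.099 for het against WT.

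Pde1c (chr6:56069804-56569103) and Slc24a4 (chr12:102128733-102267091) serve the end of the response, the former by breaking down cAMP and the latter by removing calcium in exchange for sodium. Pde1c was at 298, 325 and 304 CPM in WT, 309, 344 and 342 CPM in het and 312, 298, 326 and 309 CPM in homo libraries. Its log2 difference was 0.015 ± 0.084 (SE) for homo against WT and 0.0996 ± 0.090 for het against WT. Slc24a4 had the fewest reads, 690 to 1037 per library, and was at 33.4, 31.4 and 30.3 CPM in WT, 38.0, 43.6 and 29.5 CPM in het and 32.2, 41.0, 33.2 and 36.2 CPM in homo libraries. The library het-3 was the lowest of all and het-2 the highest. The log2 difference of Slc24a4 was 0.17 ± 0.13 (SE) for homo against WT and 0.23 ± 0.14 for het against WT, and the latter had the smallest unadjusted p of any cascade gene, 0.118 in the edgeR fit.

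The intervals limit the size of difference that the data allow. For homo against WT the 95% intervals of 8 of the 10 genes lay within 1.3-fold in either direction, the exceptions being Gng13 and Slc24a4, and 9 lay within 1.5-fold. For het against WT the same 8 genes lay within 1.3-fold, and for homo relative to het 9 genes did. All 10 intervals lay within 2-fold in the 3 comparisons. The median log2 difference over the 10 genes was 0.00034 for homo against WT, 0.039 in het relative to WT and -0.037 in homo relative to het, beside medians of 0.00011, -0.00095 and -0.00098 over all genes tested.

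**Figure D3:**
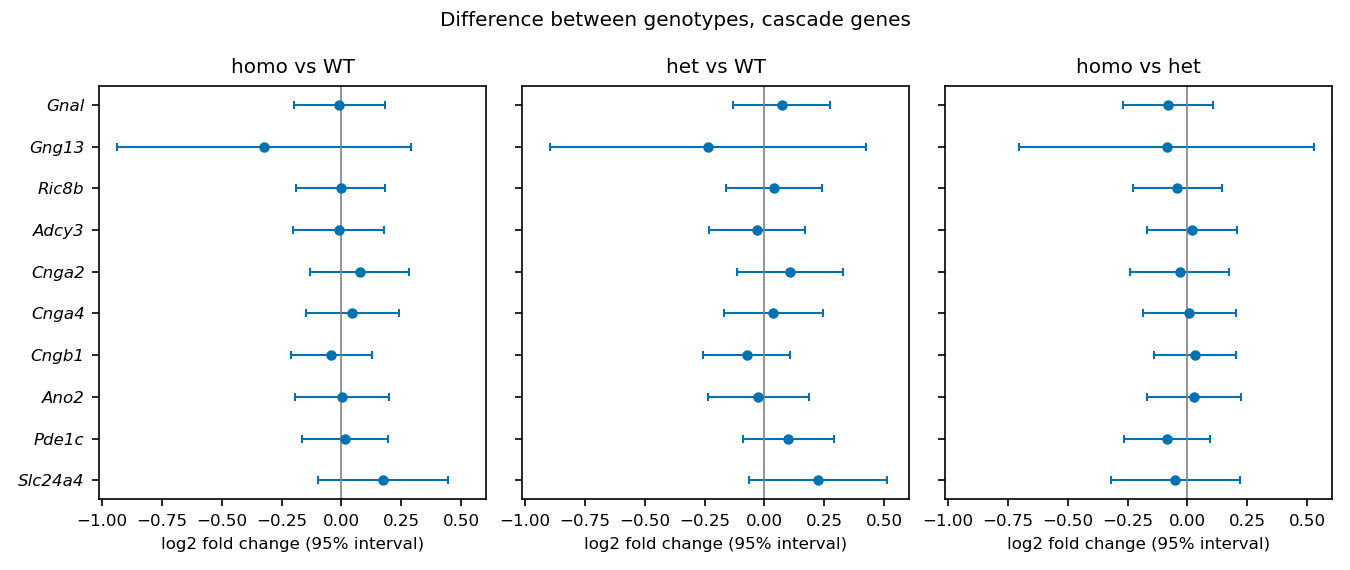
Log2 difference (points) with its 95% interval (bars) for each cascade gene in the 3 comparisons, from the edgeR fit across all genes. All intervals include 0, and that of Gng13 is the widest in each comparison.

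Same-numbered WT and het libraries deviated together, and with the replicate number as a block in these libraries alone 3 of 16877 genes (0.0178%) were called between het and WT in place of 0. No cascade gene was among them. At an unadjusted p under 0.05 there were 2 cascade genes, Gng13 and Slc24a4, in this fit, beside 6.59% of all genes. With a replicate block over all libraries, Gng13 had a log2 difference of -0.38 ± 0.11 (SE) between homo and WT, with an unadjusted p of 0.00258 and an adjusted p of 0.684 in edgeR, although homo libraries did not pair with WT libraries by number. In that fit homo-4 was alone in its block, so it did not enter the homo differences. Of all 17197 genes, 878 had an unadjusted p under 0.05 there for homo against WT. With the block fitted to WT and het libraries, its log2 difference between het and WT was -0.27 ± 0.11, with an unadjusted p of 0.0392 and an adjusted p of 0.743. That of Slc24a4 was 0.21 ± 0.098, with an unadjusted p of 0.0488 and the same adjusted p in edgeR. The same-numbered libraries WT-3 and het-3 shared the highest short-transcript levels.

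Without het-3 the Gng13 difference between het and WT was -0.59 on the log2 scale and its unadjusted p was 0.0276, and without WT-3 the difference was -0.038. Slc24a4 without het-3 differed between het and WT by 0.37, with an unadjusted p of 0.00874 in the edgeR fit, and without het-2 by 0.087, with an unadjusted p of 0.536. Neither was called after adjustment over all genes. Without het-3, 1055 of the 17390 genes tested had an unadjusted p under 0.05 between het and WT.

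The level of a gene per length lets the genes be set against each other. Levels were taken as CPM per kilobase of all annotated exon bases (GENCODE M21 on GRCm38) and are given for the WT libraries as mean ± SD (n = 3). Gng13 came first at 334 ± 83.5, followed by Cnga2 at 261 ± 2.88, Gnal at 149.6 ± 12.3, Adcy3 at 130.0 ± 10.8, Ric8b at 114 ± 1.49 and Cnga4 at 94.4 ± 7.60 CPM per kb. Then came Ano2 at 61.2 ± 2.66, Cngb1 at 33.3 ± 1.59, Pde1c at 15.4 ± 0.710 and Slc24a4 at 7.01 ± 0.348 CPM per kb.

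The order of neighbours was separate in the WT libraries except at 2 places. The ranges of Gng13 and Cnga2 overlapped, and Gng13 was the higher in 5 of the 10 libraries. The ranges of Gnal and Adcy3 also overlapped between libraries, but Gnal was the higher within each of the 10 libraries. Every other gene in the order was above the next one in 10 of 10 libraries.

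The order depended on the length used. The annotated exons of Gnal, Pde1c and Cngb1 hold many bases that a single transcript does not, and coding length also leaves out untranslated bases. Per kilobase of coding bases, Gng13 was at 1283 ± 321 and Gnal, now second, at 1244 ± 103 CPM per kb, and Gng13 was the higher in 3 of 10 libraries. Pde1c moved from ninth to seventh place, at 135 ± 6.20 CPM per kb, below Cnga4 at 146 ± 11.7 in 9 of 10 libraries. Ric8b moved above Adcy3 in 10 of 10 libraries, at 359 ± 4.68 against 236 ± 19.6 CPM per kb. Slc24a4 was last at 17.0 ± 0.843. Per kilobase of the longest coding transcript, chosen after seeing the data, Gnal was at 291 ± 24.0 and Cnga2 at 264 ± 2.91 CPM per kb, with Gnal above Cnga2 in 9 of 10 libraries. Ric8b was above Adcy3 by this length too, in 10 of 10 libraries.

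**Figure D4:**
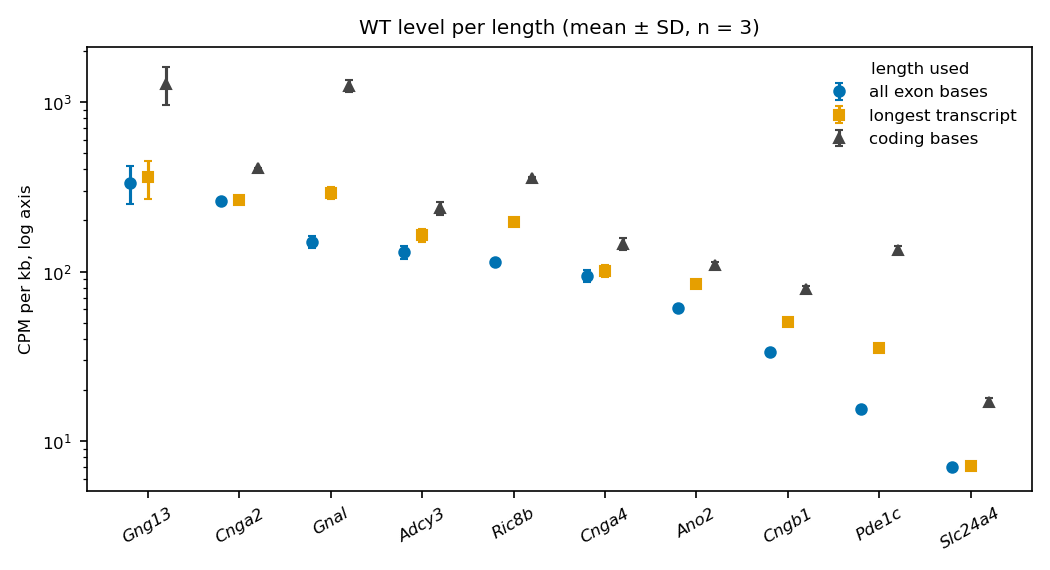
WT level of each cascade gene in CPM per kb (log axis; mean and SD of 3 libraries) with all exon bases, the longest coding transcript or coding bases as length. Gng13 is first and Slc24a4 last by each length, while the values of Gnal and Pde1c differ most between the lengths.

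Most cascade genes had the highest level of their family in WT tissue, and Gnal, Gng13, Adcy3, Cnga2, Ano2 and Ric8b were first by each of the 3 lengths, though the gene that came next could differ. Per exon length, Gng13 made 75.9% of the summed level of 12 gamma subunit genes and was followed by Gng10 at 26.0 ± 4.17 CPM per kb (SD, n = 3). Gnal made 45.2% of 16 alpha subunit genes, followed by Gnao1 at 31.5 ± 2.97. Adcy3 made 87.2% of 10 adenylyl cyclase genes, with Adcy6 next at 9.87 ± 0.269, and Ric8b made 89.4% of the pair with Ric8 (now called Ric8a), at 13.5 ± 1.94 CPM per kb. Per coding length these shares were 53.6% for Gng13, 58.9% for Gnal, 87.0% for Adcy3 and 85.6% for Ric8b.

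Among 10 anoctamin genes Ano2 made 62.9% per exon length, with Ano8 next at 9.55 ± 0.375 CPM per kb, and 52.7% per coding length. Among the 6 cyclic nucleotide-gated channel genes Cnga2, Cnga4 and Cngb1 made 67.1%, 24.2% and 8.55% per exon length. Per coding length they made 64.3%, 23.1% and 12.4%. The photoreceptor subunits were near the bottom of the scale, with Cngb3 at 0.312 ± 0.108, Cnga3, which necklace neurons also use, at 0.170 ± 0.0302 and Cnga1 at 0.0147 ± 0.00347 CPM per kb.

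Pde1c and Slc24a4 were not first in their families by any length used. Of 16 phosphodiesterase genes Pde4a was the highest, at 49.6 ± 4.64 CPM per kb, and Pde1c was the fourth, with 12.8% of the sum per exon length. Per coding length, added after seeing the data, it was the third at 135 ± 6.20 CPM per kb, after Pde7b at 151 ± 16.6 and Pde4a, and within 1 SD of Pde7b. Per longest transcript it was the third too, with 15.8% of the sum. Slc24a2 was at 20.3 ± 2.33 CPM per kb against 7.01 ± 0.348 for Slc24a4, which made 22.2% of the 6 exchanger genes per exon length and 11.9% per coding length. Whole tissue does not show which cells these transcripts came from.

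Subunit ratios were compared within each library, where library size cancels but the short-transcript level need not. Cnga4 had 28.6% to 34.0% and Cngb1 31.5% to 40.5% of the reads of Cnga2. Per exon length the WT ratio to Cnga2 was 0.361 ± 0.0303 (SD, n = 3) for Cnga4 and 0.127 ± 0.00699 for Cngb1, and per coding length 0.359 ± 0.0301 and 0.193 ± 0.0106. The long rod form of Cngb1 and the shorter olfactory form have different lengths, and which was counted is not shown by the table.

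The log2 ratio of Cngb1 to Cnga2 reads was -1.30, -1.37 and -1.46 in WT, -1.51, -1.60 and -1.57 in het and -1.50, -1.44, -1.67 and -1.34 in homo libraries. All 3 WT libraries lay above the het libraries, and homo libraries overlapped both groups. The het mean was lower than WT by 0.18, from -1.56 ± 0.0466 against -1.38 ± 0.0796 (SD), with p = 0.1, the smallest that an exact two-sided permutation test allows with 3 against 3 libraries. Adjusted over the 9 ratio tests (Benjamini-Hochberg) it was 0.661.

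The log2 ratio of Cnga4 to Cnga2 was -1.69 ± 0.119 (SD, n = 3) in WT, -1.76 ± 0.0440 (n = 3) in het and -1.71 ± 0.0550 (n = 4) in homo libraries. The exact permutation p was 0.686 for homo against WT, 0.5 in het relative to WT and 0.343 in homo relative to het. The log2 ratio of Gng13 to Gnal was -2.72 ± 0.337 in WT, -3.07 ± 0.584 in het and -3.04 ± 0.342 in homo libraries, with exact permutation p of 0.343, 0.4 and 0.971. In reads, Gng13 had 8.94% to 19.8% of the count of Gnal. The ratio was lowest in het-1 and homo-2 and highest in WT-3 and het-3, the libraries with the lowest and highest short-transcript levels. With 3 against 4 libraries the smallest p allowed is 0.0571, so none of the 9 tests could pass 0.05, and the adjusted p were 0.661 to 0.971.

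**Figure D5:**
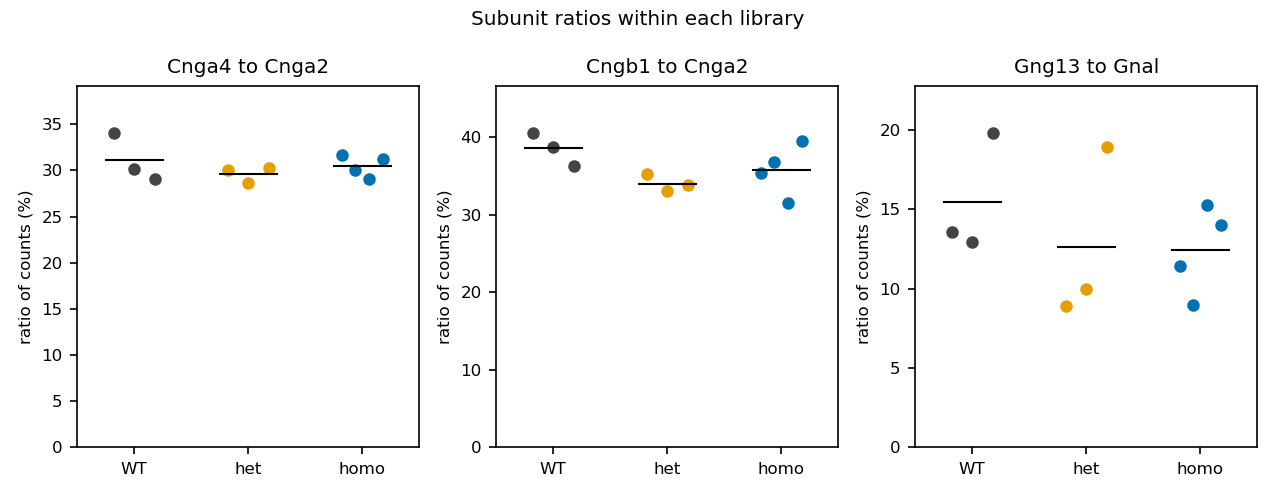
Reads of Cnga4 and Cngb1 as a percentage of Cnga2 and of Gng13 as a percentage of Gnal (axes from 0), 1 point per library with the genotype mean as a line. The Cnga4 ratio stays between 28.6% and 34.0%, the 3 het libraries lie below the 3 WT libraries for Cngb1, and the Gng13 ratio spreads from 8.94% to 19.8% with overlap of all genotypes.

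The cascade genes did not move as a single block over the 10 libraries. Of the 45 gene pairs 33 had a positive Pearson r of log2 CPM, with a median of 0.18. The most alike were Pde1c and Ric8b at r of 0.79 and Cnga2 and Cnga4 at 0.74, and the lowest r was -0.80. Without Gng13 and Slc24a4, left out after their values were seen, 23 of 28 pairs were positive with a median of 0.35. The genes of the table closest to the mean standardised level of the 10 genes, among 11249 with a mean of at least 10 CPM, were Ccbl2 (r 0.93), Derl1 (0.89), Gorab (0.89), Ing2 (0.89) and Dhdh (0.87), and the libraries' shared depth and composition enter all of these values.

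A wider list of 52 genes of olfactory transduction, all of them tested, was looked at beside the cascade. It held the calmodulins and their kinases, receptor kinases and arrestins, chloride and calcium transporters, protein kinase A subunits and the receptor transport genes Rtp1 and Rtp2. In the 3 comparisons 0 of 52 were called by edgeR and 0 by DESeq2, and the median log2 difference was -0.017 for homo against WT, 0.0071 in het relative to WT and 0.0026 in homo relative to het. At an unadjusted p under 0.05 there were 4 genes for homo against WT, 1 in het relative to WT and 0 in homo relative to het, beside the shares of 2.41%, 1.92% and 2.48% of all genes.

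Those between homo and WT were Slc4a1, the anion exchanger of red blood cells, at -0.81 ± 0.31 (SE), the sodium-calcium exchanger Slc8a2 at -0.54 ± 0.22, the cyclase Adcy2 and the anion exchanger Slc26a4. Slc26a4 was also the single gene for het against WT, at 0.73 ± 0.24 with an unadjusted p of 0.00886 and an adjusted p of 0.9996 in the edgeR fit. Adcy2 followed there at 0.31 ± 0.16. For homo against het the smallest p values belonged to Reep1, a receptor transport gene, at -0.17 ± 0.083, and the exchanger Slc8a3. Slc4a1 was called only when the library homo-1 was left out.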

How the data were processed

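The authors extracted total RNA from whole MOE (RNeasy, DNase), selected poly(A) RNA and made directional libraries (NEBNext Ultra Directional). Per the submitters' processing notes, the tools were Trimmomatic 0.36, HISAT2 2.1.0, featureCounts of Subread 1.6.2 and DESeq2 1.20.0, on GRCm38 (mm10). Annotation, strand setting and treatment of multi-mapped reads are not given in the sources used here. The deposited raw counts per gene were used for all tests. The deposited normalized signal, counts divided by 1 size factor per library, served only as an alternative for ratios, where the factor cancels.

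Genotypes and replicate numbers came from sample titles, and 0 columns were without a sample. CPM were counts per 1000000 of the library total. Counts were fitted in edgeR 4.0.16 (R 4.3.3) with filterByExpr (minimum count 10, minimum total 15), TMM scaling and robust quasi-likelihood over all 10 libraries with genotype as the term, with Benjamini-Hochberg adjustment over 17197 genes. DESeq2 1.42.0 was an alternative. The pipeline was tested on simulated data. Log2 ratios were compared by exact two-sided permutation tests (SciPy 1.17.1), the smaller tail doubled. Lengths and positions came from GENCODE M21, which matched 98.1% of symbols. Libraries of a genotype differed beyond counting noise in each pair (chi-square divided by its degrees of freedom 13.9 to 47.0).

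Same-numbered WT and het libraries had correlated deviations from their group means (0.32, 0.25 and 0.20) and were taken as paired by number, on this check of the data alone. Same-numbered WT and homo libraries (-0.12, -0.028 and -0.078) and het and homo libraries (-0.17, 0.13 and 0.058) were not. WT and het libraries of unlike number ran from -0.19 to -0.044. Deviations from a group mean cancel within the genotype, so these negative values follow in part from the positive same-numbered ones. Other libraries of unlike number reached values as high, as het-1 and homo-2 (0.26), WT-3 and homo-4 (0.24) and het-3 and homo-4 (0.24). In WT and het, Y-linked transcripts were found only in WT-1 and het-1, so sex and number cannot be told apart for that pair. Alternatives were another tool, filter or scaling, the replicate block and leaving out each library. The genes named were the 10 cascade genes, the 2 genes of the wider list with the smallest p per comparison, the cascade gene and the leading other gene of each family, the 5 genes most like the cascade in profile, and the first gene of each marker list. The cascade genes, the lists and this rule were chosen with earlier results of these data known. Genes named beyond the rule are said to be so, or stand beside a count of 4 or fewer or a family, marker or overlap result.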

Additional observations from a re-analysis of the deposited data

Results flagged for a closer look

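In each of 13 values checked in the 4 homo libraries (the 10 cascade genes and the 3 subunit ratios), the gap of the outermost library to its neighbour was compared with the group's range by Dixon's criterion. For Ric8b the library homo-3 stood out, with 640.2 CPM where the others had 586, 581 and 589 CPM, and the gap made up 0.876 of the range. Chance picks out about 1 in 20 groups by this criterion. The het libraries reached 666 CPM for the same gene, and without homo-3 the log2 difference of Ric8b between homo and WT was -0.036 in place of -0.0027.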

How the results depend on the processing

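In every alternative run, 0 of the 10 cascade genes were called in each comparison, and the smallest adjusted p of a cascade gene was 0.684 (Gng13, homo against WT, replicate block). With the replicate block 19 genes of the table were called for homo against WT in place of 12 and 24 for homo against het in place of 13, and with the replicate block in WT and het alone 3 for het against WT in place of 0. The block differences of homo libraries do not include homo-4, which was alone in its block. The block changed no other call. Genes of the wider list called for homo against WT ranged from 0 to 1 when a library was left out.

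Some differences changed sign, all of them under 0.1 in size except that of Gng13 for homo against WT (-0.32), and the cause was not tested. With the short-transcript term the log2 differences for homo against WT were 0.0090 for Gng13, 0.011 for Adcy3 and 0.037 for Ric8b, for het against WT 0.0089 for Ano2 and for homo against het 0.047 for Gng13. With the replicate block they were 0.0027 for Adcy3 and 0.017 for Ric8b (homo against WT), 0.025 for Cnga2 (homo against het) and -0.033 for the Gng13 to Gnal log2 ratio (homo against het). With library totals only Ano2 was -0.0016 for homo against WT. With the sex split as a term Ano2 was -3.0e-05 and Ric8b 0.00014 for homo against WT, and Cnga4 -0.0062 for homo against het.

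Leaving out each library in turn, the homo against WT log2 difference ran from -0.068 to 0.053 for Gnal, -0.067 to 0.053 for Adcy3, -0.046 to 0.046 for Ano2, -0.014 to 0.048 for Pde1c and -0.036 to 0.018 for Ric8b. For het against WT it ran from -0.081 to 0.039 for Adcy3, -0.0081 to 0.11 for Cnga4 and -0.0052 to 0.096 for Ric8b. For homo against het it ran from -0.28 to 0.27 for Gng13, -0.00096 to 0.044 for Adcy3, -0.10 to 0.026 for Cnga2, -0.036 to 0.055 for Cnga4, -0.021 to 0.070 for Ano2, -0.20 to 0.088 for Slc24a4 and -0.10 to 0.0041 for Ric8b. The Cnga4 to Cnga2 log2 ratio ran from -0.071 to 0.042 for homo against WT and from -0.11 to 0.00062 for het against WT, crossing 0 only without WT-1. The Gng13 to Gnal log2 ratio ran from -0.17 to 0.37 for homo against het. The lowest count of Gng13 in a library was 3334 and that of Slc24a4 690, and each genotype had 3 or 4 libraries.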
